A study of Mus musculus with 10 samples.

Results

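Rab proteins are small GTPases that switch between a GDP-bound and a GTP-bound form and, when GTP-bound, recruit the effectors that move, tether and dock vesicles. Each family member marks a particular set of membranes, from the endoplasmic reticulum to the synaptic vesicle. At nerve terminals Rab3 proteins sit on synaptic vesicles and bind the active-zone protein RIM, and endosomal Rabs sort receptors and vesicle proteins on both sides of the synapse. The genes described here are all those of the gene table whose symbol is Rab followed by a number and at most 1 letter and 1 further digit, which gives 59 of 22255 genes. They have 255 of the 102392 transcripts in the transcript table, and 216 of these had a count in at least 1 library.

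The RNA came from hippocampal synaptoneurosomes, a fraction enriched in pinched-off and resealed synaptic endings, of C57Bl/6J mice. Mice had been given vehicle or AM6545, an antagonist of the CB1 cannabinoid receptor that enters the brain poorly, on a sub-chronic schedule, and 5 libraries were made from each group. The series title calls the mice naïve and the titles of the libraries call them wild-type. Dose, age and sex are not stated in the labels, nor is whether a library holds RNA of 1 animal or of a pool, so the p-values measure only the spread between these libraries.

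The libraries held 18106112 to 25899794 estimated counts in the gene table, and the Rab genes took 0.717% to 0.839% of them. A count of 3 corresponded to 0.116 to 0.166 CPM (counts scaled to the same library total) in a library. Neuronal markers, 7 genes among them Snap25 and Syp, were present in every library at a summed 6634 to 8148 CPM. Markers of other cells were present too. Those of oligodendrocytes summed to 12172 to 28264 CPM and those of choroid plexus to 407 to 9666 CPM, with the lowest choroid plexus value in vehicle 4 and the highest oligodendrocyte value in AM6545 3. RNA of glial and choroid plexus markers was thus part of the fraction, and in such bulk RNA fewer cells of a type and less RNA per cell cannot be told apart. Vehicle 1 stood apart for the Rab genes: it was the lowest of the 10 libraries for 19 and the highest for 17 of the 55 tested Rab genes, together 65.5%, where it was an extreme for 48.6% of all tested genes. AM6545 3 was an extreme for 17 Rab genes (30.9%) and for 21.8% of all genes, and vehicle 2 for 15 Rab genes (27.3%) and 27.9% of all genes.

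Because the 4 Rab3 genes carry much of the Rab RNA described below, the coding stretch around their phosphate-binding loop, the P-loop that holds the phosphates of the nucleotide, shows how alike they are. The sequences are coding-strand sequences of the GENCODE M21 transcripts (GRCm38), 5′ to 3′, with the 8 codons of the P-loop in capitals. The genes lie at chr8:70754679-70758677 (plus strand), chr4:108879063-108943324 (plus strand), chr13:110054187-110280996 (minus strand) and chr9:21907491-21918192 (minus strand).
Rab3a-201: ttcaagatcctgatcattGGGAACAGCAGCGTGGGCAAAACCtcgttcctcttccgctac
Rab3b-201: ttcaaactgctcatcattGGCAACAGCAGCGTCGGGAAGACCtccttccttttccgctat
Rab3c-202: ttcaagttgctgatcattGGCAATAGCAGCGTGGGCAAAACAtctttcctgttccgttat
Rab3d-201: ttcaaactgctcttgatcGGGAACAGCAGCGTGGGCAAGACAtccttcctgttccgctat
Of the 60 bases shown, 48 to 52 were identical between any pair of the 4 genes. Over the whole coding sequence the pairs were 75.0% to 77.8% identical. The most abundant coding transcript of each Rab gene encoded the P-loop pattern (glycine, any 4 residues, glycine, lysine, then serine or threonine) in 56 of 59 genes, the exceptions being the transcripts of Rab11b, Rab40b and Rab40c. A cysteine codon, which can carry the lipid anchor of a Rab protein, stood among the last 4 codons in 59 of 59. The last codons ended in 2 neighbouring cysteines in 15 genes and in cysteine, any residue, cysteine in 20.

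A pair of Rab6a transcripts differs in part of the coding sequence, shown because both had counts in every library. They carry alternative versions of 1 coding stretch (coding bases 184 to 279 of 624; gene at chr7:100607410-100641268, plus strand), in which capitals mark the bases that differ.
Rab6a-201: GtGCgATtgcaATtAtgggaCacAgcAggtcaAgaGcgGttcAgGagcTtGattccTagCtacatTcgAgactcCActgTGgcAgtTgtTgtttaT
Rab6a-202: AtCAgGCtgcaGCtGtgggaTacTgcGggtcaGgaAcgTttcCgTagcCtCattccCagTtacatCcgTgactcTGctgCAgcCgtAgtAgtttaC
The 2 stretches differ at 30 bases in 24 codons but at only 3 amino acids. Rab6a-201 held 95.5 ± 0.269% of the estimated counts of Rab6a in vehicle libraries and 94.9 ± 1.22% in AM6545 libraries, and Rab6a-202 held 4.51 ± 0.271% and 5.05 ± 1.22% (SD, n = 5 each). The minor form had 1028 to 1514 counts in every one of the 10 libraries.

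Levels of different Rab genes were compared per length, as TPM, the count of each transcript over its length, scaled to the same total in every library. Rab3a, the main synaptic vesicle Rab of the brain, was the highest, at 1053 ± 110.2 TPM in the vehicle libraries (mean ± SD, n = 5). Its level was 1151, 1015, 929, 1186 and 986 TPM in vehicle libraries 1 to 5 and 1113, 1145, 837, 1069 and 1163 TPM in AM6545 libraries 1 to 5. Every vehicle value of Rab3a lay above every vehicle value of the next gene, and Rab3a was higher than Rab6a in 10 of 10 libraries. In the vehicle libraries 99.6% of all genes with a TPM value were at or below Rab3a.

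Rab6a, which acts in transport at the Golgi, followed at 737 ± 76.8 TPM in vehicle libraries. Rab2a, which acts between endoplasmic reticulum and Golgi, reached 644 ± 39.1 TPM, and Rab14, which acts between Golgi and endosomes, 568 ± 59.2 TPM. Rab11b, a Rab of recycling endosomes, stood at 499 ± 29.3 TPM and Rab7, the Rab of late endosomes, at 373 ± 65.6 TPM. The order was not firm throughout: Rab2a was above Rab14 in 9 of 10 libraries, Rab14 above Rab11b in 6, and Rab11a above Rab5a in 5. The 5 highest genes together held 49.3 ± 2.05% of the summed Rab TPM in vehicle libraries and the 10 highest 67.7 ± 0.568%.

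At the other end, 4 Rab genes were near absence. Rab25, Rab17 and Rab44 had at most 1, 2 and 3 counts in any library, at or under the floor of 3 counts. Rab19 reached 10 counts in vehicle 2 and was at 0 in vehicle 4. These 4 did not pass the filter on low counts and were not tested, which left 55 genes. By mean vehicle TPM, 20 of the 59 genes were at or above 100 TPM, 23 between 10 and 100, 12 between 1 and 10, and 4 below 1. The plot of vehicle levels by role shows this span, from Rab3a down to Rab25, which was listed at 0 in all 5 vehicle libraries.

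**Figure D1:**
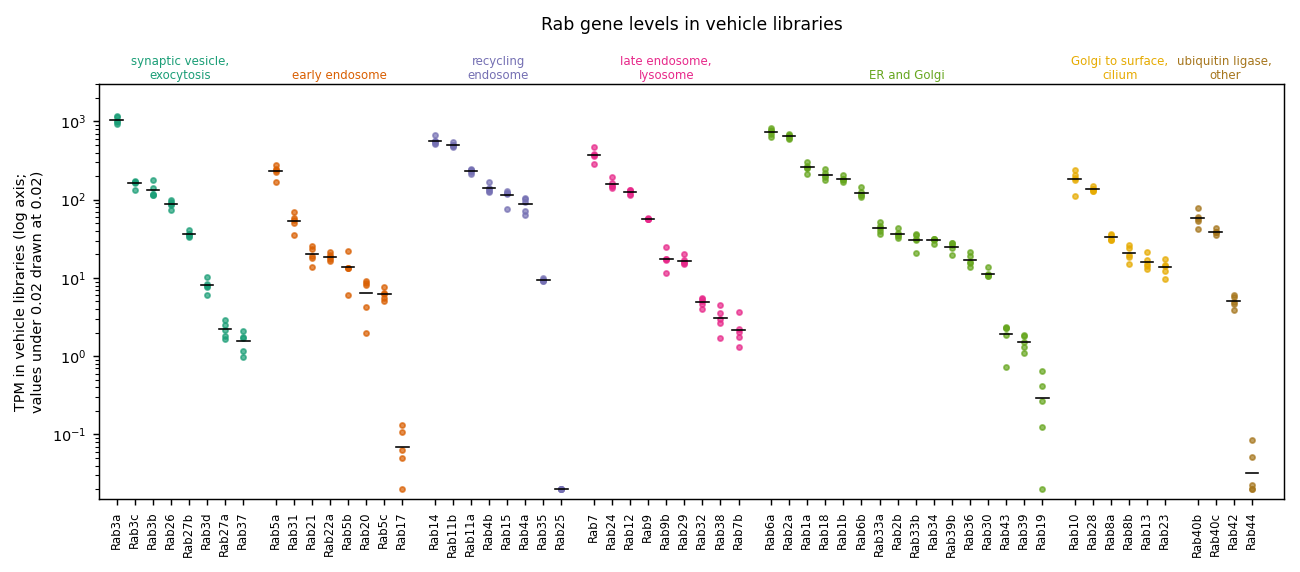
Level of each of the 59 Rab genes in the 5 vehicle libraries (TPM, log axis), grouped by the membrane on which the protein acts; points are libraries, black lines are means, and values under 0.02 are drawn at 0.02. Rab3a is highest at a mean of 1053 TPM, 20 genes lie at or above 100 TPM and 4 lie below 1 TPM.

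By role, the largest share of the summed Rab TPM belonged to the 16 genes of the endoplasmic reticulum and Golgi, at 33.1 ± 1.47% in vehicle and 33.1 ± 0.239% in AM6545 libraries. The 8 recycling endosome genes held 23.3 ± 1.36% and 22.6 ± 0.461%, and the 8 genes of synaptic vesicles and regulated exocytosis 20.9 ± 2.10% and 20.9 ± 1.20%. Each gene was counted in 1 role only, and the shares depend on this choice. Rab14, which acts between Golgi and endosomes, gave 568 of the 1650 TPM of the recycling endosome genes in vehicle libraries. The 9 genes of late endosomes and lysosomes held 10.7 ± 0.368% and 10.9 ± 0.247%. Smaller shares went to the 6 genes of transport from the Golgi to the surface and the cilium (5.67% in vehicle), to the 8 early endosome genes (4.91%) and to the 4 remaining genes (1.42%). For each of these 7 groups the shares of the 2 treatments differed by less than 1 SD of the vehicle libraries.

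The share of the most abundant member differed between paralog families. In a pair 1 member always holds the larger part, so only the size of the share is informative. Rab5a made up 92.2 ± 1.32% of the TPM of the 3 Rab5 genes in vehicle libraries, Rab27b 94.4 ± 0.829% of the Rab27 pair and Rab6a 85.8 ± 1.16% of the Rab6 pair. Rab11b held 68.1 ± 1.81% of the Rab11 pair, Rab4b 61.7 ± 5.07% of the Rab4 pair and Rab1a 58.2 ± 1.58% of the Rab1 pair. The 4 Rab3 genes together took 19.1 ± 1.97% of the summed Rab TPM in vehicle and 19.2 ± 1.12% in AM6545 libraries. Within them Rab3a held 77.6 ± 0.902% in vehicle, Rab3c 12 ± 1.80%, Rab3b 9.78 ± 1.29% and Rab3d 0.602 ± 0.144%. In AM6545 libraries the same shares were 78.1 ± 1.12%, 10.5 ± 0.886%, 10.8 ± 0.562% and 0.636 ± 0.109%.

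The comparison of AM6545 with vehicle was made on the counts of all genes with edgeR's quasi-likelihood test, and the fold changes below are log2 differences, AM6545 minus vehicle, of counts scaled by the trimmed mean of M values (TMM). With Benjamini-Hochberg adjustment over the 14358 genes tested, 0 of 55 Rab genes had an adjusted p under 0.05, and 0.0% of all genes did. DESeq2's Wald test and limma-voom with sample quality weights also called 0 Rab genes. No Rab gene is therefore described as changed, and the unadjusted values follow as measurements. At an unadjusted p under 0.05 there were 5 Rab genes, 1 higher and 4 lower in AM6545 libraries, or 9.09% of those tested. Over all genes 1.88% had such a p, 1.14% higher and 0.738% lower. No p was computed for the family as a list. The count of 5 became 2 without vehicle 3, without AM6545 3 or without AM6545 4, and 3 without vehicle 4, vehicle 5 or AM6545 5. That count was 4 without vehicle 1 or AM6545 2, stayed 5 without AM6545 1 and rose to 7 without vehicle 2.

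The median log2 difference of the 55 Rab genes was -0.027, with 21 above and 34 below 0. Over all 14358 genes tested the median was -0.0057, with 6906 above and 7452 below 0. Within 0.2 of 0 on the log2 scale lay 47 of the 55 Rab genes (85.5%) and 84.6% of all genes. The 95% interval of the difference lay inside a 1.5-fold change either way for 44 of 55 Rab genes (80.0%) and for 80.2% of all genes. In 0 of 55 Rab genes did the 2 groups of libraries not overlap, while 0.293% of all genes had non-overlapping groups. In Rab27b, Rab37, Rab39 and Rab40c, 4 AM6545 libraries lay outside the vehicle range on 1 side. Rab40c did so at a log2 difference of only 0.045 (edgeR unadjusted p = 0.587). The share of all genes or transcripts with 4 such libraries was not counted. The plot of differences with their intervals shows most members close to 0, with wide intervals only for the low or variable genes.

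**Figure D2:**
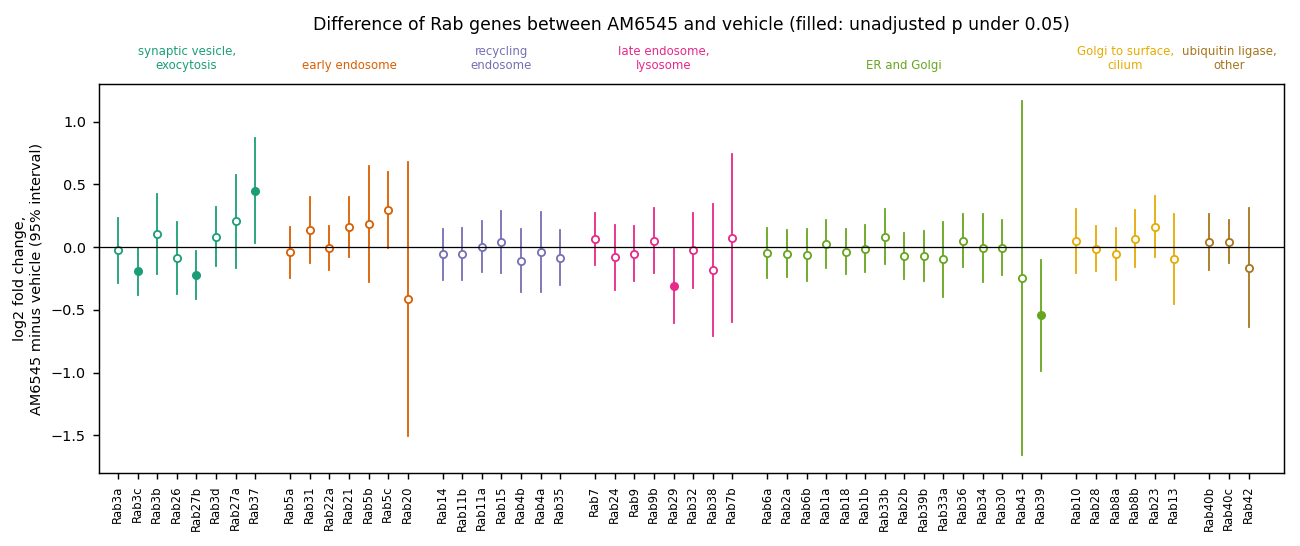
log2 difference between AM6545 and vehicle libraries for 54 tested Rab genes (Rab12 is shown elsewhere), with the 95% interval from edgeR's quasi-likelihood fit, grouped by role and ordered by vehicle CPM within a role; filled points have an unadjusted p under 0.05. The filled points are Rab3c, Rab27b, Rab37, Rab29 and Rab39, and no gene passed after adjustment.

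Among the genes of synaptic vesicles and regulated exocytosis, 4 of 8 had a log2 difference above 0 and 4 below, with a median of 0.029. For Rab3a the vehicle libraries 1 to 5 gave 935, 653, 683, 868 and 685 TMM-scaled CPM and the AM6545 libraries 768, 822, 607, 754 and 803. The AM6545 values lay among the vehicle values except AM6545 3, which was lower than all of them. The log2 difference of Rab3a was -0.026 (95% interval -0.29 to 0.24, unadjusted p = 0.834). Its sign turned without vehicle 1 (0.056), without vehicle 4 (0.024) and without AM6545 3 (0.041), so it had no stable direction.

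Rab3c had 255, 232, 256, 275 and 257 CPM in the vehicle libraries and 213, 245, 211, 234 and 210.5 CPM under AM6545. In 3 AM6545 libraries (1, 3 and 5) the level was below all vehicle libraries, and the other two lay within the vehicle range. The means were 255 ± 15.4 and 223 ± 15.9 CPM, a log2 difference of -0.19 (SE 0.09, unadjusted p = 0.0457). Without 1 library at a time this unadjusted p ranged from 0.0254 to 0.115.

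Rab3b had 116, 59.4, 68.0, 83.6 and 67.4 CPM across vehicle libraries 1 to 5, against 82.1, 86.0, 71.7, 89.1 and 94.5 CPM across AM6545 libraries 1 to 5. Vehicle 1 alone lay above all AM6545 libraries, and vehicle 2, 3 and 5 lay below all of them. The log2 difference was 0.10 (SE 0.15, unadjusted p = 0.501), and without vehicle 1 it was 0.28 with an unadjusted p of 0.017, still without an adjusted call. With limma-voom on all 10 libraries the unadjusted p of Rab3b was 0.0146, also without an adjusted call. Rab3d, the least abundant paralog, had 13.6, 17.0, 16.5, 15.8 and 14.5 CPM with vehicle, compared with 18, 15.6, 15.7, 18.6 and 14.2 CPM with AM6545, with overlapping groups and a log2 difference of 0.083 (95% interval -0.15 to 0.32).

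Rab27 proteins act with Rab3 in the docking of secretory granules and vesicles. Rab27b had 62.7, 60.8, 55.7, 59.1 and 57.5 CPM in the vehicle libraries and 49.8, 52.3, 44.4, 50.2 and 56.5 CPM under AM6545. In 4 of 5 AM6545 libraries the level was below every vehicle library, and AM6545 5 lay just within the vehicle range. The log2 difference was -0.22 (SE 0.09, unadjusted p = 0.0233). Dropping each library in turn kept this unadjusted p under 0.05 for 9 of the 10, and it was 0.059 without AM6545 3. Its rarer paralog Rab27a had 2.86, 3.65, 3.01, 3.77 and 3.27 CPM across vehicle libraries 1 to 5, against 4.12, 3.62, 2.87, 3.50 and 4.99 CPM across AM6545 libraries 1 to 5, with AM6545 1 and AM6545 5 above all vehicle libraries and a log2 difference of 0.21 (unadjusted p = 0.260).

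Rab37, a Rab of secretory granules, was the only member with an unadjusted p under 0.05 and a higher AM6545 mean. It had 1.70, 1.89, 1.35, 2.17 and 2.42 CPM with vehicle, compared with 2.33, 2.58, 2.98, 2.71 and 2.52 CPM with AM6545. In 4 AM6545 libraries it was above all vehicle libraries, and AM6545 1 lay below vehicle 5. The log2 difference was 0.45 (SE 0.20, unadjusted p = 0.0359) on a low level of under 3 CPM in every library. That p was above 0.05 without vehicle 1, 2 or 3 and without AM6545 3 or 4, reaching 0.0969 without vehicle 3. It was 0.0535 with limma-voom and 0.0501 with the replicate number as a block. Rab26, which has been linked to the clearance of synaptic vesicles, had a log2 difference of -0.087 (95% interval -0.38 to 0.20) with overlapping groups.

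**Figure D3:**
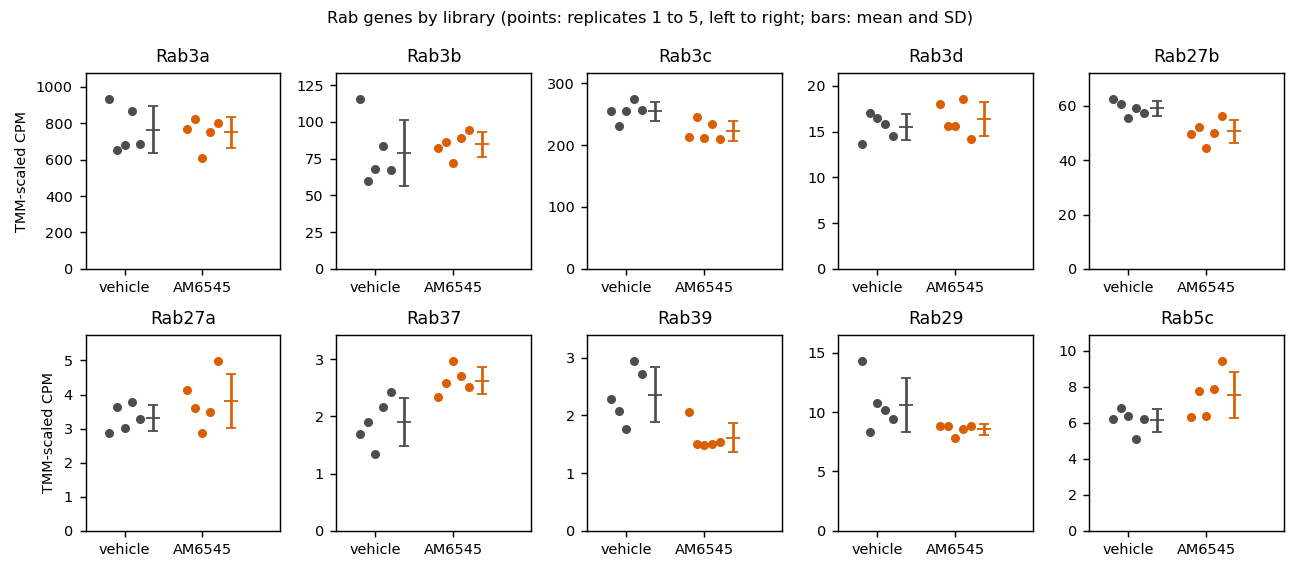
Level of 10 Rab genes in each library (TMM-scaled CPM, axes from 0), with replicates 1 to 5 of each group from left to right and the mean and SD beside them. In Rab27b and Rab39, 4 of 5 AM6545 libraries lie below all vehicle libraries, and in Rab37 4 of 5 lie above. The share of all genes with such a pattern was not counted. In Rab3a and Rab3b the groups overlap with vehicle 1 highest.

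Of the 7 tested early endosome genes, 4 were above 0 and 3 below, with a median log2 difference of 0.14. Rab5a, which governs fusion of early endosomes, had 237, 301, 286, 298 and 292 CPM in the vehicle libraries and 266, 281, 246, 283 and 298 CPM under AM6545. Vehicle 1 was the lowest of all 10 libraries, and the groups overlapped. The log2 difference was -0.041 (95% interval -0.24 to 0.16). Its rarer paralog Rab5c had 6.21, 6.82, 6.38, 5.08 and 6.21 CPM across vehicle libraries 1 to 5, against 6.30, 7.75, 6.39, 7.87 and 9.44 CPM across AM6545 libraries 1 to 5. AM6545 2, 4 and 5 were above all vehicle libraries and the other two lay within the vehicle range, with a log2 difference of 0.30 (SE 0.14, unadjusted p = 0.0525). Rab21, which takes part in integrin trafficking, had a log2 difference of 0.16 (unadjusted p = 0.170).

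Of the 7 tested recycling endosome genes, 2 were above 0 and 5 below (median -0.053). Rab14 had 559, 472, 467, 531 and 503 CPM with vehicle, compared with 489, 537, 441, 476 and 489 CPM with AM6545. Only AM6545 3 was below all vehicle libraries, and the log2 difference was -0.059 (95% interval -0.26 to 0.14). For Rab11b it was -0.053 (interval -0.26 to 0.15), and it was 0.0032 without AM6545 2. Rab4b, a Rab of fast recycling, had 87.4 ± 18.1 CPM in the vehicle libraries and 81.0 ± 2.30 CPM under AM6545. Its vehicle spread came from vehicle 1, the highest of all libraries, and its log2 difference of -0.11 became 0.020 without it. Rab35, the lowest tested member of the group, had a log2 difference of -0.083 (interval -0.30 to 0.14).

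Of the 9 late endosome and lysosome genes, 3 were above 0 and 6 below (median -0.052). Rab7 had 402 ± 37.5 CPM across the vehicle libraries, against 420.1 ± 30.8 CPM across the AM6545 libraries, a log2 difference of 0.065 (95% interval -0.14 to 0.27). Rab7b, a low gene, had a log2 difference of 0.072 whose sign turned for 5 of the 10 libraries when each was dropped, within a span of -0.11 to 0.29. Rab29, a Rab of the trans-Golgi and lysosome that binds the kinase LRRK2, had 14.3, 8.34, 10.8, 10.2 and 9.39 CPM with vehicle, compared with 8.82, 8.79, 7.77, 8.57 and 8.80 CPM with AM6545. The AM6545 libraries lay close together and vehicle 1 was well above the other libraries, while vehicle 2 lay among the AM6545 values. The log2 difference of Rab29 was -0.31 (SE 0.14, unadjusted p = 0.0404), and it was -0.18 without vehicle 1, with an unadjusted p of 0.147.

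Of the 15 tested genes of the endoplasmic reticulum and Golgi, 3 were above 0 and 12 below (median -0.046). Rab6a had 1178, 1227, 1195, 1317 and 1226 CPM in the vehicle libraries and 1216, 1222, 1059, 1187 and 1264 CPM under AM6545. AM6545 3 was the lowest library and the others overlapped, with a log2 difference of -0.046 (95% interval -0.25 to 0.15). For Rab2a the log2 difference was -0.051 (interval -0.24 to 0.14). Rab39, the lowest tested member by TPM, had the smallest unadjusted p of the family. It had 2.28, 2.08, 1.76, 2.95 and 2.72 CPM across vehicle libraries 1 to 5, against 2.06, 1.5, 1.49, 1.5 and 1.53 CPM across AM6545 libraries 1 to 5. AM6545 2 to 5 were below all vehicle libraries and AM6545 1 lay within the vehicle range. The log2 difference of Rab39 was -0.54 (SE 0.21, unadjusted p = 0.0188), and its unadjusted p was above 0.05 without vehicle 4 or without vehicle 5, reaching 0.0603. Its paralog Rab39b, which was far more abundant, had a log2 difference of -0.073 (interval -0.27 to 0.13).

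Among the 6 genes of transport to the surface and the cilium, 3 were above 0 and 3 below. Rab10, which carries vesicles to the plasma membrane, had 333 ± 60.3 CPM with vehicle, compared with 344 ± 12.4 CPM with AM6545, a log2 difference of 0.047 (interval -0.21 to 0.30) that became -0.058 without vehicle 1. Rab23, known for its part in hedgehog signalling, had 22.0 ± 2.97 CPM in the vehicle libraries and 24.6 ± 2.54 CPM under AM6545, with 3 AM6545 libraries above all vehicle libraries (log2 difference 0.16, unadjusted p = 0.175). Of the remaining genes, Rab40b, which carries a SOCS box that joins it to a ubiquitin ligase, had a log2 difference of 0.04 (interval -0.18 to 0.26) that became -0.023 without vehicle 1. Rab42, a low gene of little-known function, had -0.16 (interval -0.64 to 0.31).

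Rab12, which was singled out after its values were seen, differed between the 2 deposited tables. Its gene row held 16.3 CPM in vehicle 2 and 15.2 CPM in AM6545 3 but 0.207 to 0.595 CPM in the other 8 libraries. For 58 of the 59 Rab genes the gene row equalled the sum of the gene's transcripts to within 0.5 counts in every library, and Rab12 was the exception. Its transcripts summed to 2079 to 3440 counts, because Rab12-205, with 1802 to 3428 counts in every library, is not part of the gene row. The gene row followed Rab12-201, which had 337 counts in vehicle 2, 269 in AM6545 3 and 0 in the other 8.

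The 2 transcripts share nearly all of their sequence. All 2010 bases of Rab12-205 are contained in the 2069 bases of Rab12-201, which has 59 further bases at its 5′ end and opens its coding sequence upstream. The first coding bases of each (gene at chr17:66494512-66519729, minus strand, GRCm38, start codon in capitals) differ as follows.
Rab12-201: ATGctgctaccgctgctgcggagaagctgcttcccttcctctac
Rab12-205: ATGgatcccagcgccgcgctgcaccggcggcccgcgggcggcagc
The coding sequence of Rab12-201 is 873 bases long and that of Rab12-205, contained in it, 729. Taken as the sum of its transcripts, Rab12 had 133, 124, 125, 141 and 128 CPM in vehicle libraries 1 to 5 and 133, 129, 115, 127 and 129 CPM in AM6545 libraries. The groups overlapped, with a log2 difference of -0.042 (SE 0.086, 95% interval -0.22 to 0.14, unadjusted p = 0.635). By this sum Rab12 ranked 18th of the Rab genes, at 125 ± 9.17 TPM in vehicle libraries. From the gene row the log2 difference was -0.13 (interval -3.71 to 3.45), which ran from -3.01 to 2.79 when 1 library was left out.

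Estimates of single transcripts were also unsteady within other Rab genes. Rab1a-201 and Rab1a-206 share all 31-base words of the shorter one. Rab1a-206 held the larger count in 9 libraries, while AM6545 4 had 5255 counts of Rab1a-201 and 955 of Rab1a-206. The gene itself was steady, with a highest library 1.21 times the lowest and a log2 difference of 0.025. Rab40c behaved alike: Rab40c-201 held 22.9 to 71.5% and Rab40c-205 20.9 to 53.2% of the gene's counts, and Rab40c-209 had 281 counts in vehicle 5 and 0 elsewhere. Rab40c as a gene differed by no more than 1.13 times between libraries. A split between such transcripts is thus an estimate whose own error the tables do not give.

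**Figure D4:**
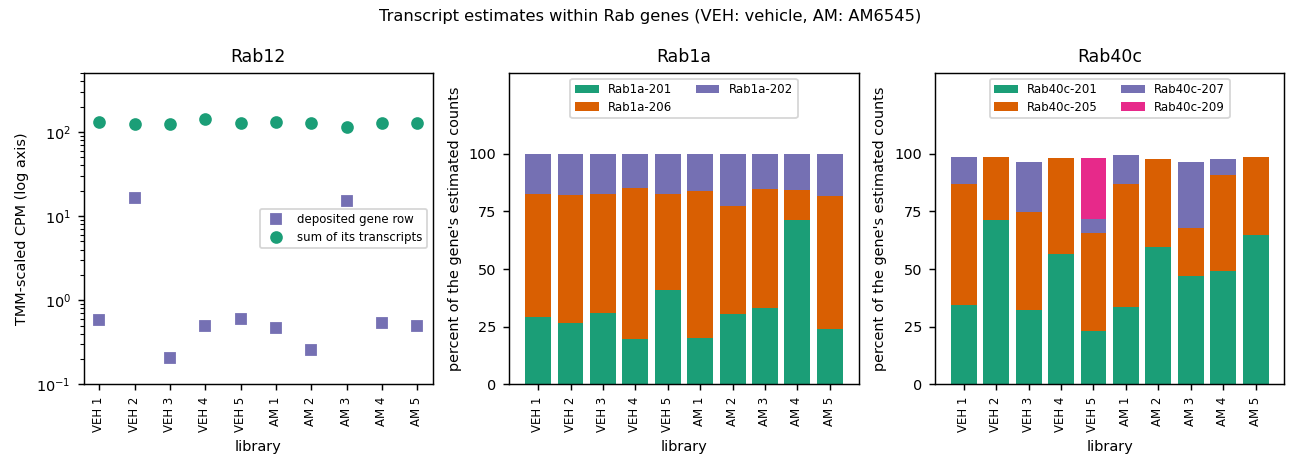
Left, Rab12 in each library as the deposited gene row and as the sum of its transcripts (TMM-scaled CPM, log axis); middle and right, the share of estimated counts held by the main transcripts of Rab1a and Rab40c (percent, stacked). The Rab12 sum stays between 115 and 141 CPM while the gene row is under 1 CPM in 8 libraries, and Rab1a-201 takes 71.4% in AM6545 4.

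Of 31848 transcripts tested, 110 belonged to Rab genes. After adjustment 0 Rab transcripts had an edgeR p under 0.05, and 1 transcript of the whole table did (0.00314%). Unadjusted, 6 Rab transcripts (5.45%) had a p under 0.05, 2 higher and 4 lower, beside 1.97% of all transcripts. Rab22a-203, annotated as subject to nonsense-mediated decay, had 2.52, 0.821, 1.61, 4.58 and 1.69 CPM across vehicle libraries 1 to 5, against 5.81, 4.61, 4.83, 8.31 and 3.36 CPM across AM6545 libraries 1 to 5. In 4 AM6545 libraries it was above all vehicle libraries, and its log2 difference was 1.26 (SE 0.43, unadjusted p = 0.0148). Rab22a-203 shared 99.6% of its 31-base words with Rab22a-201, so its counts rest on an estimated split whose error is not given. It was a minor form: Rab22a-201 held 96.2 ± 2.27% of the gene's counts in vehicle and 91.6 ± 3.04% in AM6545 libraries, and Rab22a as a gene had a log2 difference of -0.01. Rab14-202, annotated as a retained intron, had 2.75 ± 0.386 CPM with vehicle, compared with 3.72 ± 0.322 CPM with AM6545 (log2 difference 0.43, unadjusted p = 0.0276).

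Rab29-202 was the only one of the 110 tested Rab transcripts whose groups did not overlap, and 0.575% of all 31848 tested transcripts had such groups. It had 8.67, 4.11, 5.05, 4.54 and 4.31 CPM in the vehicle libraries and 3.26, 3.21, 3.50, 2.97 and 3.75 CPM under AM6545, a log2 difference of -0.68 (SE 0.23, unadjusted p = 0.0136). Without vehicle 1, the highest library, it was -0.43 with an unadjusted p of 0.0197. The other main form, Rab29-201, held 50.4 ± 6.68% of the gene's counts in vehicle and 60.0 ± 3.80% in AM6545 libraries. Rab3c-202, the main form of Rab3c, had 137, 154, 171, 175 and 161 CPM across vehicle libraries 1 to 5, against 131, 142, 121, 145 and 125 CPM across AM6545 libraries 1 to 5 (log2 difference -0.27, unadjusted p = 0.0116). AM6545 1, 3 and 5 were again below all vehicle libraries. Of their 31-base words, Rab29-202 shared 87.0% with Rab29-201 and Rab3c-202 shared 95.4% with Rab3c-201. The counts of both thus also rest on an estimated split whose error is not given.

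In 5 of the 255 Rab transcripts, 1 library had 1 count or fewer and another had 100 or more. This was so for 2818 of all 102392 transcripts, so the share was not higher among Rab transcripts. Besides Rab12-201 and Rab40c-209 the 5 were Rab7-203, Rab40c-207 and Rab43-203. Rab7-203 had 53.1, 164, 365, 338 and 92.2 counts in vehicle and 201, 0, 46.6, 228 and 85.9 counts in AM6545 libraries. Rab40c-207 was at or near 0 in vehicle 2, vehicle 4, AM6545 2 and AM6545 5 and reached 254 counts in AM6545 3. Rab43-203 was at 0 in vehicle 1 and AM6545 3 and reached 114 counts in AM6545 4. Such zeros occurred in both treatment groups for these last 2 transcripts.

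Sequence shared with other genes limits some members. For genes on the opposite strand this depends on the use of strand, which is not given in the sources used here. In GENCODE M21, 13 of 59 Rab genes shared over 10% of their 31-base words with another gene, and 15 overlapped an exon on the opposite strand. Rab43, a Golgi Rab, shared 74.8% with Gm45140 on the same strand, and Rab4b 62.7%, mostly with Gm21983. Rab2b shared 59.6%, mostly with the antisense gene Gm43766, and Rab24 54.4% with the antisense gene Prelid1. Rab20 shared 24% with E230013L22Rik, Rab33b 22.6%, mostly with Gm38160, and Rab6a 21.3%, mostly with Mrpl48, all on the opposite strand. Among the most abundant members, Rab7 shared 18.4%, mostly with Rab7-ps1, Rab11b 15.4%, mostly with Rab11b-ps2, and Rab2a 10.7% with Gm5865. Rab39b shared 17.2% with the antisense gene Gm15063, and Rab9 and Rab5b were also above 10%. The levels of these 13 members are uncertain, and how much of each count came from the other gene was not tested. Rab39 and Rab29 shared 0%, and Rab37, Rab3c and Rab27b at most 1.17%.

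The spread between libraries was modest for most members. The median biological coefficient of variation was 0.131 over the 55 Rab genes and 0.148 over all tested genes. In 28 of the 55 the highest library was less than 1.5 times the lowest, and in 7 it was 2 times or more. Beside Rab12, the spread was over 1.5 times the trend of genes of like level in Rab43 (2.82 times), Rab20 (2.29 times) and Rab5b (1.60 times), which were singled out after their values were seen. Rab43 had 0.534, 4.36, 3.11, 4.71 and 4.76 CPM with vehicle, compared with 4.86, 1.86, 0.551, 5.20 and 2.08 CPM with AM6545, with the low values in vehicle 1 and AM6545 3. Those are the libraries in which Rab43-203, with 86.8% of the gene's counts, was estimated at 0. Rab43 also shares 74.8% of its words with Gm45140, and the part of this in its spread was not tested. Rab5b was low in vehicle 1 alone, at 9.42 CPM against 19.0 CPM or more in the other 9 libraries.

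Rab20, best known from macrophages and epithelia, had 7.48, 5.54, 5.96, 1.47 and 3.02 CPM in the vehicle libraries and 3.77, 1.5, 3.91, 1.75 and 6.63 CPM under AM6545. Low and high libraries occurred in both groups, and reads of the opposite-strand gene E230013L22Rik may be counted in these values. The summed choroid plexus markers were 8665, 7660.1, 9666, 407 and 6839 CPM in vehicle libraries and 4516, 2229, 6768, 2146 and 7814 CPM in AM6545 libraries. Rab20 was lowest in vehicle 4, the library of lowest choroid plexus markers, and highest in vehicle 1, which had the second-highest.

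Over the 10 libraries, Pearson's r between Rab20 and the choroid plexus markers, both as log2(CPM + 1), was 0.83 (permutation p = 0.00019, adjusted p = 0.0627 over 330 relations of 55 genes with 6 marker lists). Spearman's rho was 0.92 (permutation p = 0.00052, adjusted p = 0.0649). Without vehicle 4 and AM6545 4, the libraries farthest from the median of the markers, r was 0.88. Of the 330 relations 0 passed after adjustment by either measure. The neuronal markers were not among the 6 lists, so no relation with them was computed. Rab3a beside the astrocyte markers did not pass (r -0.87, permutation p = 0.001, adjusted p = 0.165). Its rho was -0.92 (permutation test, adjusted p = 0.0649), and its r was -0.67 without vehicle 1 and AM6545 3. Rab14 beside the oligodendrocyte markers did not pass either (r -0.85, permutation p = 0.00154, adjusted p = 0.169). For Rab14 rho was -0.92 (permutation test, adjusted p = 0.0649), and r was -0.73 without AM6545 2 and AM6545 3. The relations given here were chosen from the 330 after their values were seen. The part of these markers in the Rab levels was not tested.

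**Figure D5:**
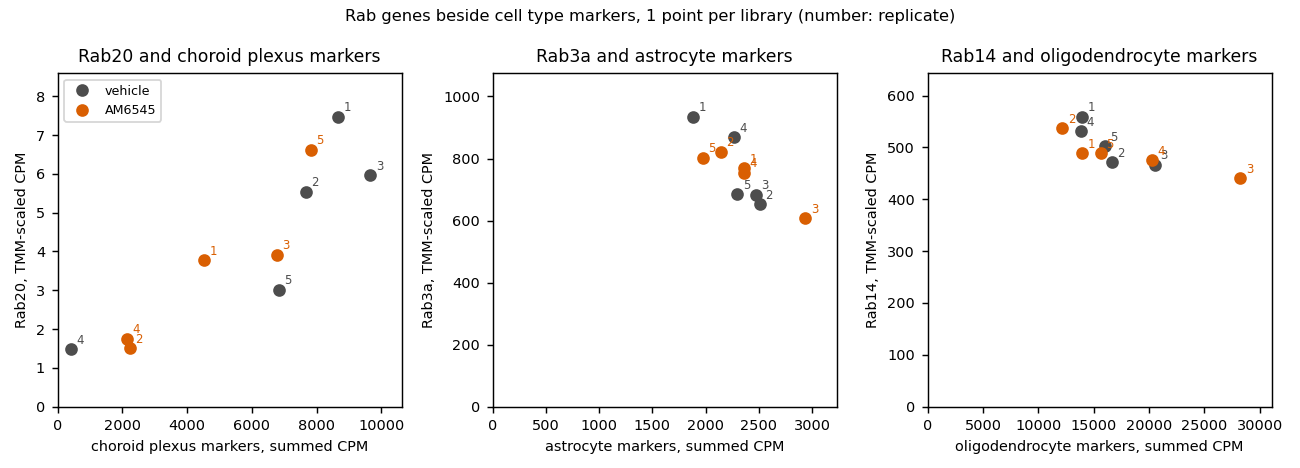
Level of Rab20, Rab3a and Rab14 (TMM-scaled CPM, linear scale) against the summed CPM of choroid plexus, astrocyte and oligodendrocyte markers, 1 point per library with its replicate number, axes from 0. Rab20 is higher where the choroid plexus markers are higher (r 0.83). Rab3a and Rab14 are lowest in AM6545 3, which has the highest astrocyte and oligodendrocyte markers. No relation passed after adjustment, and those drawn were chosen after their values were seen.

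Rab proteins depend on partners that load, switch and read them, and 134 such genes were in the table, of which 130 were tested. Adjusted, 0 of 130 passed with edgeR, and 1 (0.769%) had an unadjusted p under 0.05, beside 1.88% of all genes. Their log2 differences were above 0 for 83 and below 0 for 47, with a median of 0.037 beside -0.0057 over all genes. Over all 14358 genes tested, 6906 were above and 7452 below 0. These counts of direction were not tested. By kind, 37 of 50 effectors, 24 of 39 GTPase-activating proteins, 18 of 33 exchange factors and 4 of 8 chaperone and prenylation genes were above 0.

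Sgsm1, a GTPase-activating protein, had 13.2, 17.4, 12.2, 18.5 and 18.3 CPM across vehicle libraries 1 to 5, against 19.7, 23.6, 15.7, 19.5 and 21 CPM across AM6545 libraries 1 to 5. In 4 AM6545 libraries it was above all vehicle libraries (log2 difference 0.32, SE 0.14, unadjusted p = 0.0350). The effector Ehbp1 had 7.23 ± 1.47 CPM with vehicle, compared with 9.10 ± 1.83 CPM with AM6545 (log2 difference 0.33, unadjusted p = 0.0587). In the other direction Mon1a, part of the exchange factor of Rab7, had 23.1 ± 2.37 and 20.0 ± 1.63 CPM (log2 difference -0.20, unadjusted p = 0.0622), and the GTPase-activating protein Tbc1d16 had 16.6 ± 2.06 and 14.2 ± 2.19 CPM (log2 difference -0.23, unadjusted p = 0.0880). The adjusted p of each was close to 1, as it was for every Rab gene.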

How the data were processed

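Libraries were made from total RNA of hippocampal synaptoneurosomes with a SMARTer ultra-low-input kit, as the labels' protocols state. The deposited tables hold estimated counts, 1 table for genes and 1 for transcripts. Salmon 1.5.2 and mm10 are named in the submitters' processing notes, and strand and annotation release are not given in the sources used here. Group and replicate came from the library titles. Symbols were matched by gene identifier for 22155 of 22255 genes, and transcript names, lengths and sequences came from GENCODE M21 (GRCm38) by identifier without version, for 101527 transcripts holding 99.3% of the counts.

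Rounded counts were tested with edgeR 4.0.16 in R 4.3.3 (TMM, filterByExpr with a minimum count of 10 and a minimum total of 15, group as the only term, robust quasi-likelihood F test, two-sided), with Benjamini-Hochberg adjustment over all genes or transcripts tested and a threshold of 0.05. TPM was computed in Python 3.11.15 from transcript counts and lengths. Correlations used 100000 permutations. The model was also run on counts simulated with its own fitted spread, which cannot show where it misfits these libraries. Alternatives were DESeq2 1.42.0 (size factors, Wald test), limma 3.58.1 voom with sample weights, total count scaling, other filters, a replicate block and leaving out each library. The 3-count floor covers counting error only.

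The members and the lists of roles, partners and markers were chosen with earlier results of these data known. Named genes were the Rab3 genes, the 5 highest, up to 5 per direction of smallest p and the highest and lowest tested member of each role. Named transcripts were up to 2 per direction of smallest p and up to 3 that ranged from at most 1 count to at least 100 between libraries, and named partners up to 2 per direction. Any other gene or transcript given with values was chosen after its values were seen. Protein sequences were not used here.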

Additional observations from a re-analysis of the deposited data

Results flagged for a closer look

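In groups of 5 libraries, a library counts as far from the others when its gap to the nearest one exceeds 0.71 of the group's range, and chance alone gives this in about 1 of 20 groups. Among the 48 groups of the 24 named Rab genes other than Rab12, 3 were found, where 2.4 would come by chance. Rab39 had 2.06 CPM in AM6545 1, above the 1.49 to 1.53 CPM of the other AM6545 libraries. Rab29 had 7.77 CPM in AM6545 3, below the 8.57 to 8.82 CPM of the others. Rab5a had 237 CPM in vehicle 1, below the 286 to 301 CPM of the other vehicle libraries. Rab12 was named after its values had been seen. Its deposited gene row had 16.3 CPM in vehicle 2 against 0.207 to 0.595 CPM in the other vehicle libraries, and 15.2 CPM in AM6545 3 against 0.258 to 0.541 CPM in the other AM6545 libraries. Those 2 libraries are the ones with counts for Rab12-201, the transcript that the gene row includes.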

How the results depend on the processing

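No Rab gene, Rab transcript or partner gene had an adjusted p under 0.05 in any fit run. The number of genes called was 1 with limma-voom and 0 to 1 when 1 library was left out; the number of transcripts called was 11 with DESeq2's Wald test, 0 with at least 10 counts in every library, 0 with the replicate block and 0 to 4 when 1 library was left out. Rab genes with an unadjusted p under 0.05 numbered 2 with the replicate block (Rab27b and Rab39) and 2 to 7 when 1 library was left out. Under limma-voom there were 5, namely Rab27b, Rab39, Rab3b, Rab3c and Rab5c, with 2 higher and 3 lower. Rab29 and Rab37 were not among those. With limma-voom the log2 differences of Rab3a (0.078), Rab11b (0.016) and Rab10 (-0.0092) changed sign. Leaving out 1 library moved them over these ranges, in which the sign turned: Rab3a -0.078 to 0.056, Rab11b -0.084 to 0.0032, Rab4b -0.18 to 0.020, Rab7b -0.11 to 0.29, Rab10 -0.058 to 0.11, Rab40b -0.023 to 0.12, Rab12 (gene row) -3.01 to 2.79 and Rab40c-207 -0.59 to 1.17. The cause was not tested. The evidence that libraries with the same replicate number deviate together was mixed (correlations -0.14, -0.19, 0.23, 0.39 and 0.065, with 3 of 5 best matched by their own number); as not every correlation was over 0.1, the numbers were not taken to pair them. The replacement of the Rab12 row was chosen after seeing the data. The mean vehicle share of the Rab3 genes in the summed Rab TPM, 19.1%, was 18.5% to 19.9% under the alternatives run. Depth limits Rab17, Rab19, Rab25 and Rab44, which had at most 10 counts.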
